A study of Mus musculus with 96 samples.

Results

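SOX17 and SOX2 were compared as companions of OCT4 after 2 days of GATA6 induction, over the 42403 GATA6 binding regions of the deposited table. All 42403 of 42403 regions entered the comparison, with 6 of the 96 labelled libraries of the series: 2 each of chromatin immunoprecipitated with antibodies to SOX17, SOX2 and OCT4 and sequenced (ChIP-seq). All 6 came from KH2 embryonic stem (ES) cells of C57BL/6 x 129/Sv background, which carry a gata6 cassette inducible by doxycycline (Dox), treated with 1 µg/mL Dox for 48 h. The transgene and the treatment were therefore common to both SOX factors, and the comparison was between antibodies in cells of the same line and treatment. The labels do not say whether the antibodies were used on the same chromatin. As references, ES cells before Dox, cells of the same line treated for 48 h with Dox and an siRNA (control or Oct4), and X10 extra-embryonic endoderm (XEN) cells of CD1 background without treatment were used. The ES cells were selected as drug-resistant clones and grown on mouse feeder cells that were adsorbed away before fixation, and the Oct4 siRNA was applied to a single clone. Since the regions were chosen for GATA6 binding, OCT4 sites outside them were not analysed here.

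OCT4, encoded by Pou5f1, is a POU domain factor that binds DNA together with SOX2 in pluripotent cells, on a composite motif in which a SOX element lies next to an OCT element. SOX17 is a SOX factor of the primitive endoderm (PrE), the lineage that GATA6 drives. Its DNA-binding domain is closely related to that of SOX2, and it is known to favour a shorter composite motif, in which the base between both elements is missing. At day 2 of induction the cells hold both SOX factors, so that OCT4 could sit with either.

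Across all regions, OCT4 followed SOX2 more closely than SOX17. The Spearman correlation (rho) of OCT4 with SOX2 was 0.917, and with SOX17 it was 0.833. The balance between both SOX factors moved in opposite directions with the spacing of the 2 elements, toward SOX17 where they abutted and toward SOX2 where 1 base lay between them. The sequences below show both arrangements, 5′ to 3′ on the strand given, with the letters of the composite motif in capitals. The first pair, chosen for the unequal balance of its regions, holds the compressed spelling TTGTATGC. The next, at the region of highest OCT4 next to Pou5f1, holds the canonical spelling TTGTNATGC. The last 3 are the best OCT:SOX matches, given with all 15 bases of the motif, of regions where SOX2 exceeded SOX17 most. These regions hold neither spelling.
Wwp2 (chr8:107476937-107476966, minus strand): cccaggggacaTTGTATGCtaaaaagtgac
Cd247 (chr1:165854649-165854678, plus strand): atgtggttacaTTGTATGCatataggtgca
Pou5f1 (chr17:35504042-35504071, minus strand): tcatgcacctTTGTTATGCatctgccgtct
Eif4e2 (chr1:87226486-87226515, plus strand): gtcttgtCTTTCTTATGCTAACcactattt
Nup205 (chr6:35236253-35236282, minus strand): tcttcagCATTCTCATGCAGAAacatcttg
Pja1 (chrX:99557017-99557046, plus strand): ctggcctCTTGGTCATGCAGATgtacctca

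The signal is given as reads on each region scaled to library size (RPM), a unit in which wide regions collect more reads. The deposited columns hold the mean of 2 libraries, from which the value of each was recovered as described with the processing, and the libraries are called shallower and deeper because the columns carry no replicate number. SOX17 had 12.6 and 12.7 M reads, SOX2 16.7 and 17.7 M, and OCT4 17 and 37.7 M. The share of reads on the regions was 6.99% and 9.85% for SOX17, 7.18% and 6.46% for SOX2, and 7.82% and 7.08% for OCT4, so that the SOX17 libraries differed most. Replicate libraries correlated at 0.887 (SOX17), 0.907 (SOX2) and 0.932 (OCT4). Correlations are given across regions, which share library, depth and base composition and are not replicates, so they carry no p-value. Their range over the 4 pairs of single libraries stands as the error, and the value of the pooled columns can lie outside it.

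Over single libraries, rho of OCT4 with SOX2 ran from 0.852 to 0.902 and that with SOX17 from 0.784 to 0.812, so that the ranges did not overlap. Both SOX factors also correlated with each other, at 0.818. With SOX17 held constant, the partial correlation of OCT4 with SOX2 was 0.742 (0.621 to 0.738 over single libraries). With SOX2 held constant, that of OCT4 with SOX17 was 0.362 (0.245 to 0.5). Both partial correlations were positive, and that of SOX2 was larger. Since the signal held constant is itself noisy, they do not show a part that either factor carried alone. When input, GATA6 at day 2 and region width were held constant as well, SOX2 kept 0.656 while SOX17 was at 0.0683. GATA6 itself correlated with SOX17 at 0.895 and with SOX2 at 0.822 across the same regions, and with OCT4 at 0.86. Input chromatin correlated with OCT4 at 0.76 and region width at 0.74.

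The same order was seen when regions were sorted into quintiles of each SOX signal. Within a given quintile of SOX17, the median OCT4 signal was 5.66- to 7.87-fold higher in the highest than in the lowest quintile of SOX2 for the 4 lower quintiles of SOX17, and 3.19-fold higher than in the next lowest quintile for the highest one, where the lowest held too few regions. Within a given quintile of SOX2, OCT4 was 1.82- to 3.4-fold higher in the highest than in the lowest quintile of SOX17, again with the next quintile (2.17-fold) where the highest held too few regions. At the lowest quintile of SOX17, for instance, the median OCT4 went from 0.244 RPM at 5503 regions with the least SOX2 to 1.92 RPM at 60 regions with the most. Cells of the grid with fewer than 20 regions were not used in these folds, and within a quintile the signals still varied.

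**Figure D1:**
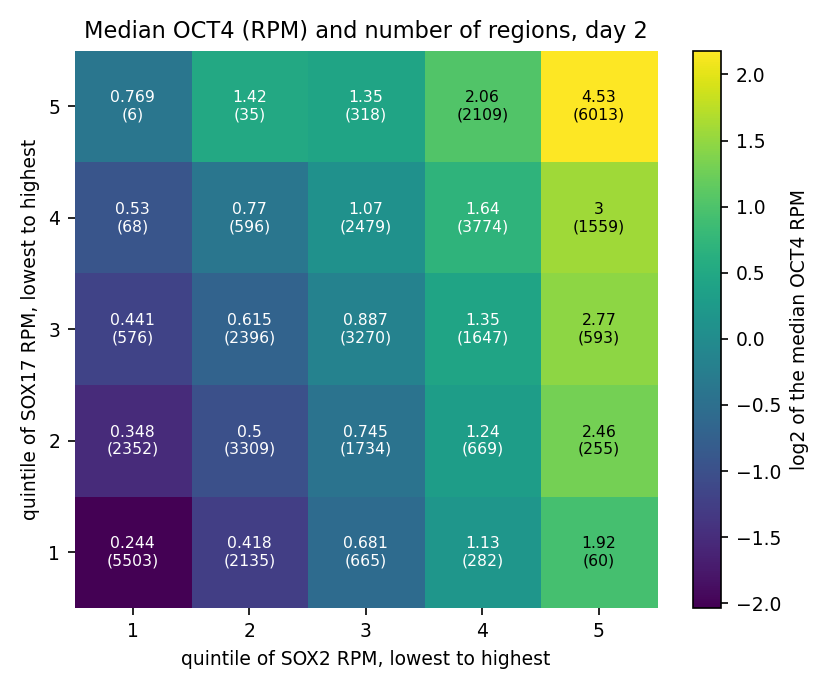
Median OCT4 signal at day 2 (RPM, printed in each cell, colour on a log2 scale) with the number of regions in parentheses, by quintile of SOX2 RPM (horizontal) and quintile of SOX17 RPM (vertical). OCT4 is higher along both axes, from 0.244 RPM where both are lowest to 4.53 RPM where both are highest, with the larger step along SOX2.

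The authors graded each region by its best OCT:SOX motif (high, mid, low or none), its best SOX17 motif in the same grades, and its accessibility in undifferentiated ES cells (accessible, moderate or closed). In all 11 classes of these properties, OCT4 followed SOX2 more closely than SOX17, and in 9 of 11 the ranges over single libraries did not overlap. The exceptions were regions without an OCT:SOX motif, at 0.877 for SOX2 and 0.845 for SOX17, and closed regions, at 0.892 and 0.849. At regions with a high OCT:SOX motif the distance was larger, at 0.944 for SOX2 and 0.8 for SOX17. It was largest at accessible regions, at 0.884 against 0.67, where the partial correlation of SOX17 was 0.25 and that of SOX2 was 0.792. Regions with a high SOX17 motif did not reverse the order, with 0.935 for SOX2 and 0.85 for SOX17, although rho with SOX17 was higher there than at regions without that motif (0.806). Crossing accessibility with the OCT:SOX motif gave 12 classes. SOX2 was ahead in 12 of 12, and with ranges apart in 8. Without the shallower SOX2 library, SOX2 was ahead in 9 of the 11 classes.

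**Figure D2:**
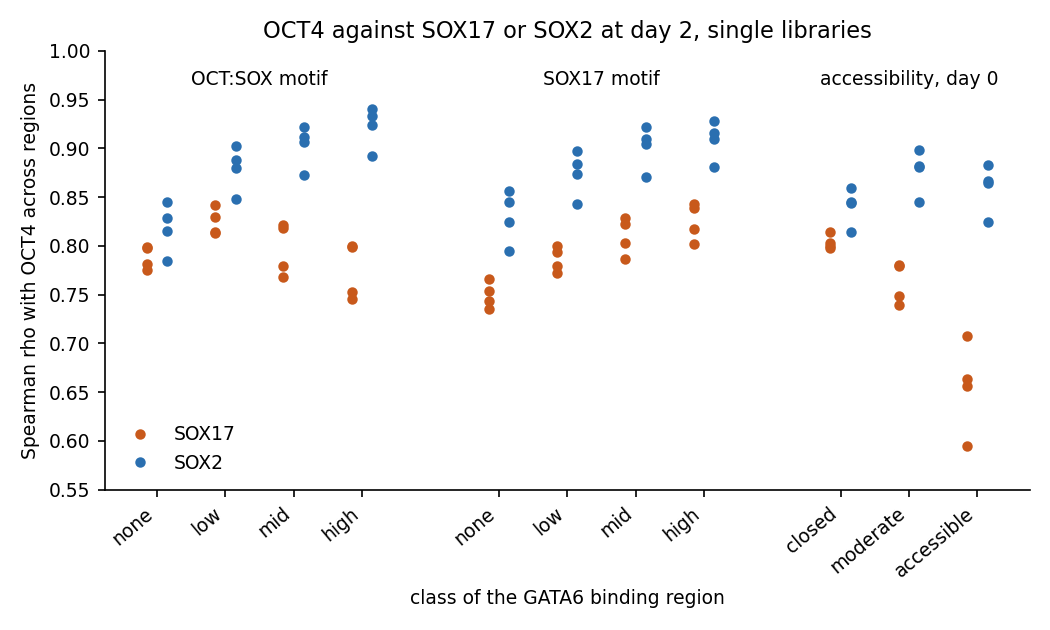
Spearman correlation across regions of OCT4 with SOX17 (orange) or SOX2 (blue) at day 2, by class of OCT:SOX motif, SOX17 motif and accessibility before induction, with 1 point for each of the 4 pairs of single libraries. The 2 colours overlap only at regions with no OCT:SOX motif and at closed regions, and lie farthest apart at accessible regions.

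The level of the 2 SOX factors changed with the same classes. Regions with a high OCT:SOX motif had a median of 0.949 and 1.02 RPM in the SOX17 libraries, 1.8 and 1.75 RPM in the SOX2 libraries, and 1.94 and 1.93 RPM in the OCT4 libraries. Regions without the motif had 0.712 and 0.787 RPM of SOX17, 0.6 and 0.564 of SOX2 and 0.646 and 0.556 of OCT4. SOX2 and OCT4 were thus both higher with the motif, and SOX17 was near its median over all regions (0.87 and 1.02 RPM). Because 2 antibodies have no common scale, the balance was taken as the median of log2 SOX17 over SOX2 relative to that of all regions. It was lower by 0.79 at high than at no OCT:SOX motif, with -0.91 to -0.75 over 4 pairs of single libraries. For the SOX17 motif the difference had the opposite sign, at 0.25 (0.19 to 0.33). Accessible regions differed from closed ones by -0.59 (-0.78 to -0.50).

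The balance was lowest where accessibility and the OCT:SOX motif came together. At closed regions it was 0.14 without an OCT:SOX motif and -0.24 (-0.28 to -0.20) with a high one. At accessible regions it was -0.08 without the motif, where the range over library pairs included 0 (-0.27 to 0.07), and -1.53 (-1.66 to -1.42) with a high one. The latter 416 regions had a median of 4.31 RPM of OCT4, 4.52 of SOX2 and 1.38 of SOX17. Their SOX17 signal was below that of accessible regions without the motif (1.73 RPM), whereas SOX2 was 1.63 RPM there. The size of all these differences depended on the scale. A pseudocount 10 times larger brought the value for the OCT:SOX motif to -0.28, that for the SOX17 motif to 0.10 and that for accessibility to -0.22. Subtracting the signal of each antibody where its target is absent brought them to -2.09, 0.52 and -1.63. Each kept its direction, but the subtracted signals came from unlike cells, SOX17 from ES cells before Dox and SOX2 from XEN cells. At regions with a high OCT:SOX motif their medians were 1.06 and 0.472 RPM, and at accessible regions 1.47 and 0.728 RPM. More was therefore taken from SOX17 there, which itself lowers the balance. With SOX17 of control siRNA cells in place of SOX17, the differences for OCT:SOX motif, SOX17 motif and accessibility were -0.92, 0.39 and -1.38.

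**Figure D3:**
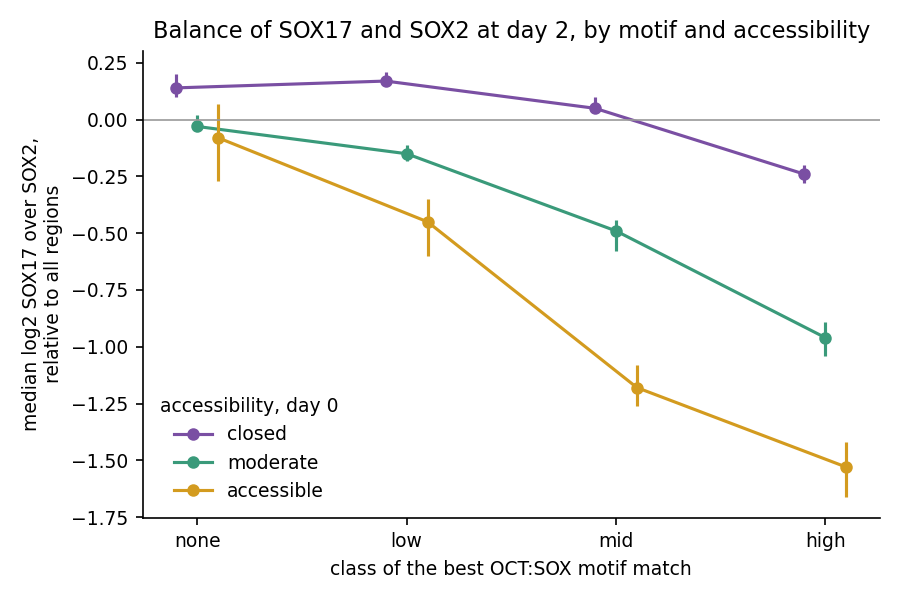
Median log2 SOX17 over SOX2 at day 2 relative to all regions (vertical axis, 0 is the median region), by class of the best OCT:SOX motif match and, in colour, accessibility before induction, with bars for the lowest and highest of 4 pairs of single libraries. The balance is lower with a mid or high than with no match in each accessibility class, and reaches -1.53 at accessible regions with a high match.

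The spacing of the 2 elements separated the SOX factors further. The letters TTGT and ATGC, on either strand, were found next to each other (TTGTATGC, compressed) in 798 regions, or 1.88% of all, and with any base between them (TTGTNATGC, canonical) in 1226, or 2.89%, with 28 regions holding both. At the 770 regions with only the compressed spelling, the median was 1.9 and 2.6 RPM in the SOX17 libraries, 1.62 and 1.35 in the SOX2 libraries and 2.23 and 1.83 in the OCT4 libraries. At the 1198 with only the canonical spelling it was 1.11 and 1.26 RPM of SOX17, 1.92 and 1.92 of SOX2 and 1.88 and 1.93 of OCT4. The OCT4 levels of both spellings thus overlapped, while SOX17 was higher in both libraries at the compressed and SOX2 in both at the canonical spelling. The balance was 0.32 (0.22 to 0.43) at compressed and -0.64 (-0.66 to -0.58) at canonical regions, a difference of 0.96 (0.80 to 1.09). This difference was 0.41 with a pseudocount 10 times larger and 2.24 after subtracting the signal without target, which again came from unlike cells. A high OCT:SOX class was given to 7.27% of the compressed and 34.6% of the canonical regions, against 6.68% of all, and no match by the authors' scan to 17.3% and 2.92%, against 28.5% of all. Closed regions made up 68.4% of the compressed and 41.1% of the canonical group, against 61.3% of all. Within closed regions the balance was 0.49 at compressed and -0.09 at canonical spellings. Within moderate regions, of which 205 and 553 held the spellings, it was -0.12 (-0.18 to -0.02) and -0.91. Within accessible regions, of which only 38 and 153 held them, it was -0.12 and -1.68. With neither spelling it was 0.14, -0.19 and -0.41 at closed, moderate and accessible regions. The compressed spelling thus lay above the balance of all regions only at closed regions.

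At regions with the compressed spelling, OCT4 followed neither SOX factor more closely beyond the spread of the libraries, with rho of 0.905 for SOX17 and 0.898 for SOX2. The difference between the 2 ranged from -0.036 to 0.066 over 8 combinations of single libraries and was positive in 4. The difference was -0.0745, with SOX2 ahead, after subtracting the signal without target and -0.0726 with SOX17 of control siRNA cells, both outside that range. The partial correlations were 0.677 for SOX17 and 0.652 for SOX2. Regions with the canonical spelling had 0.768 for SOX17 and 0.942 for SOX2, with partial correlations of 0.405 and 0.878. The same search was made with 0 to 5 bases between the elements, keeping regions with a single kind of spacing. The balance was 0.31 with no base, -0.67 with 1 base, and between -0.04 and 0.04 with 2 to 5 bases. Only with no base between the elements did the ranges of rho for SOX17 (0.867 to 0.906) and SOX2 (0.842 to 0.902) overlap. With 1 to 5 bases they lay apart, and the partial correlation of SOX17 was 0.285 to 0.444. A match of these letters describes the sequence and does not show that a factor sat on it.

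**Figure D4:**
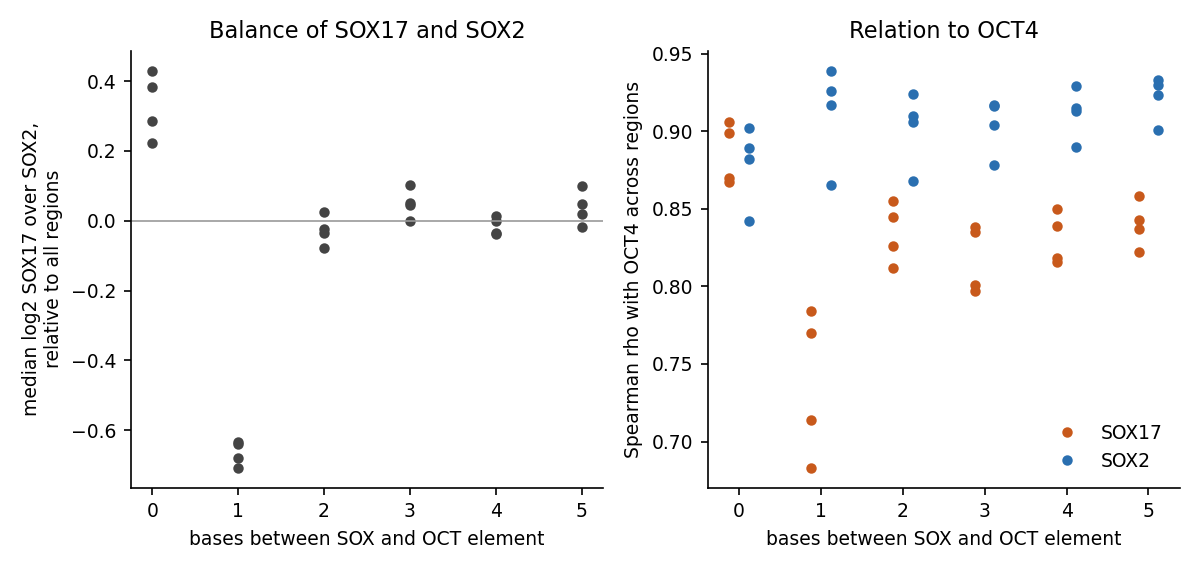
Left, median log2 SOX17 over SOX2 relative to all regions by the number of bases between the SOX and OCT elements; right, Spearman correlation of OCT4 with SOX17 (orange) or SOX2 (blue) at the same regions, with 1 point for each of 4 pairs of single libraries. With no base the balance lies above 0 and both colours overlap, with 1 base it lies near -0.67 and SOX17 has its lowest correlations, and with 2 to 5 bases the balance lies near 0.

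At the level of single regions, SOX17 was above SOX2 relative to the median region at 3881 regions (9.15% of all) and SOX2 was above SOX17 at 3688 (8.7%), by limma on the 4 libraries with an adjusted p below 0.05. The SOX17-above regions had a median of 2.93 and 4.49 RPM in the SOX17 libraries and 1.5 and 1.19 in the SOX2 libraries. At the SOX2-above regions these were 0.791 and 0.866 for SOX17 and 2.34 and 2.6 for SOX2. OCT4, which the test did not use, was at 2.06 and 1.56 RPM in the former and 1.88 and 2.2 RPM in the latter, above the 0.823 and 0.742 RPM of regions not called. Both kinds of region therefore had more OCT4 at day 2 than the rest, as they also had more input (0.54 and 0.467 RPM against 0.392). Regions with more reads are called more readily. The deeper OCT4 library was higher at SOX2-above and the shallower at SOX17-above regions, so OCT4 did not separate the 2 groups. Before induction they differed, with a median OCT4 of 3.5 RPM at SOX2-above and 0.656 RPM at SOX17-above regions. The counts of calls depended on the libraries, and without the deeper SOX2 library they were 708 and 1322, without the shallower one 1377 and 2316, and without the deeper SOX17 library 2252 and 3400. Without centring each library on its median, SOX2-above regions numbered 2412.

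SOX17-above calls made up 28.3% of compressed and 4.67% of canonical regions, against the 9.15% of all regions. SOX2-above calls made up 6.36% and 36.6%, against 8.7%, and 81% of the 153 accessible regions with the canonical spelling. By the OCT:SOX motif, SOX2-above calls went from 1.89% of regions with none to 38.8% with a high match, and by accessibility from 2.05% of closed to 32.5% of accessible regions. SOX17-above calls went from 3.84% of regions without a SOX17 motif to 16% with a high one. Of the SOX17-above regions 78.5% were closed before induction, against 61.3% of all regions. The authors' Early&Constant GATA6 cluster held 50.1% of them against 28% of all regions, and their Late cluster 36.5% against 33.6%. Of the SOX2-above regions 84.5% belonged to the Transient cluster, whose GATA6 binding is lost over time, against 38.4% of all regions. GATA6 at day 2 was at a median of 2.59 RPM in the former and 1.09 in the latter.

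Among regions in the top 10% of OCT4, the largest excess of SOX17 was found next to Wwp2, Aqp1, Cd247 and Gnat2. These regions, and those of the largest excess of SOX2 below, were picked by the excess in the same libraries. Their values and p-values therefore do not test it anew. The region in an intron of Wwp2, an E3 ubiquitin ligase known to act on OCT4, spans chr8:107476720-107477241 and holds the compressed spelling shown above. It had 20.8 and 24.1 RPM of SOX17, 2.34 and 1.75 of SOX2 and 13.5 and 11.9 of OCT4. The log2 difference was 3.21 ± 0.31 (SE, limma adjusted p = 1.5e-21), and neither SOX17 library came near the SOX2 libraries. Although the authors' scan gave it no OCT:SOX match, OCT4 was already at 4.13 RPM there before induction, with 2.34 of SOX17 and 1.68 of SOX2 antibody signal.

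The region in an intron of Cd247, which encodes a chain of the T cell receptor complex, spans chr1:165854041-165855116 and carries 7 compressed spellings in near-tandem copies, of which the first is printed above. SOX17 was at 27.1 and 54.9 RPM, SOX2 at 6.42 and 4.57 and OCT4 at 38.3 and 23.8. All 3 were low before induction, at 1.6, 1.02 and 1.75 RPM, and SOX17 in XEN cells was at 0.922 RPM. Reads from such repeats can be hard to place, and input was at 1.1 RPM. The other two held neither spelling. At the region 15502 bp from the start of Aqp1, a water channel gene (chr6:55351783-55352284), SOX17 was at 7.44 and 12.5 RPM, SOX2 at 1.2 and 0.452 and OCT4 at 6.87 and 3.92. At the region nearest Gnat2, a transducin gene, within an intron of Gnai3 (chr3:108117075-108117572), SOX17 was at 6.41 and 12.3 RPM, SOX2 at 1.14 and 1.24 and OCT4 at 8.58 and 5.56. In both, the SOX17 libraries lay wholly above the SOX2 libraries.

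The largest excess of SOX2 was found next to Eif4e2, Nup205, Pja1 and Klf2, at regions with neither spelling. The region within a noncoding part of an exon of Eif4e2, which encodes a cap-binding protein of translation, spans chr1:87226395-87226898. It had 0.712 and 0.866 RPM of SOX17, 9.18 and 11.2 of SOX2 and 5.88 and 7.98 of OCT4. The log2 difference was -3.52 ± 0.31 (SE, limma adjusted p = 1.4e-25). Its OCT:SOX match shown above was of the high class, as were those of the regions in an intron of Nup205, a nuclear pore gene (log2 difference -3.48), and upstream of Pja1, a ubiquitin ligase gene (-3.36). The region at -2776 bp from the start of Klf2, a transcription factor of naive pluripotency (chr8:72315857-72316655), had no OCT:SOX match by the scan, with 1.27 and 1.18 RPM of SOX17, 11.3 and 14.4 of SOX2 and 7.64 and 10.8 of OCT4. All 4 were held by SOX2 and OCT4 before induction, from 13.1 to 23.2 RPM and from 9.93 to 19.3 RPM, and the SOX17 antibody also gave 2.93 to 4.23 RPM there, more than at day 2.

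**Figure D5:**
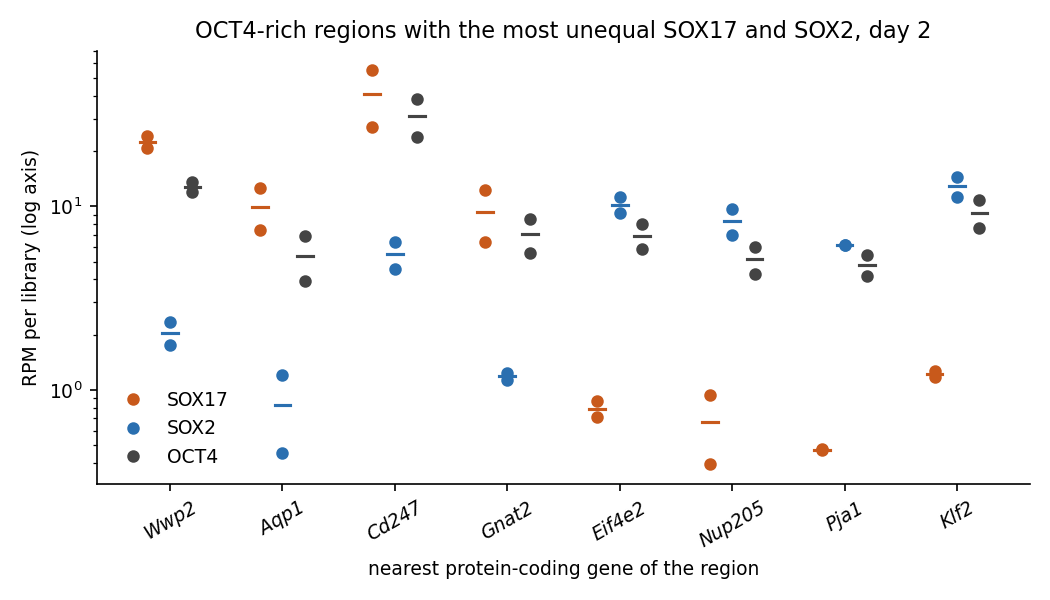
Signal of each library (points) and their mean (bars), in RPM on a log axis, for SOX17 (orange), SOX2 (blue) and OCT4 (grey) at the 8 regions of the top 10% of OCT4 with the most unequal SOX factors, named by the nearest gene. SOX17 lies above SOX2 in both libraries at the 4 regions on the left and below it at the 4 on the right, while OCT4 is high at all 8. The regions were picked for these traits in the same libraries.

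The region of highest OCT4 next to each gene of a PrE and a pluripotency list was then examined, the nearest gene being named without evidence that the region acts on it. All 20 PrE genes had a region, of which 6 were SOX17-above, 2 SOX2-above and 12 not called, where 9.15% and 8.7% of all regions were called, with a median log2 difference of 0.63 against 0.07 over all regions. Of the 20 pluripotency genes 19 had one, with 2 SOX17-above, 6 SOX2-above and 11 not called and a median of -0.31. The Klf2 region is one of the 6. These regions were picked for high OCT4, and 19.5% of all SOX17-above and 22.2% of all SOX2-above regions lay in the top 10% of OCT4. Over all 241 regions nearest a PrE gene, 46 (19.1%) were SOX17-above and 9 (3.73%) SOX2-above, and over the 214 nearest a pluripotency gene 20 (9.35%) and 35 (16.4%). At Gata4, a partner factor of GATA6 in the endoderm, the intronic region chr14:63264284-63266085 had 20.7 and 38.6 RPM of SOX17, 11.8 and 7.85 of SOX2 and 21.8 and 17.7 of OCT4 (log2 difference 1.40 ± 0.34 SE, limma adjusted p = 0.00056). The region nearest Col4a2, a collagen gene of the basement membrane, lay in an intron of Col4a1. There SOX17 was at 41.8 and 64.1 RPM and SOX2 at 21.1 and 15.6 (1.37 ± 0.37 SE, limma adjusted p = 0.0028). Both calls were lost when either SOX2 library was left out, with adjusted p of 0.17 and 0.49 for Gata4 and 0.38 and 0.63 for Col4a2. The regions of Lamc1, a laminin gene, and Pdgfra, a receptor gene of the PrE, had log2 differences of -0.02 and 0.02 and held both factors, with 30.4 and 47.6 RPM of SOX17 and 42.4 and 29.2 of SOX2 at Lamc1. At Cubn, an endocytic receptor gene of the visceral endoderm, the difference was 0.64 (limma adjusted p = 0.23).

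Among pluripotency genes, the region upstream of Pou5f1 (chr17:35503642-35504431) with the canonical spelling had 5.62 and 7.95 RPM of SOX17, 11.9 and 10.6 of SOX2 and 15.2 and 16.3 of OCT4. The difference of -0.87 ± 0.31 (SE) had a limma adjusted p of 0.036, which did not hold in 5 of 10 other settings, with adjusted p of 0.39 and 0.47 without either SOX2 library. At Tbx3, Sall4, Klf5 and Esrrb, all transcription factors of ES cells, the differences were 0.04, 0.47, 0.50 and -0.31 and none was called. The regions that went against the direction of their list, picked out after their values were seen, were those of Sox2 (2.05) and Nanog (1.01) among SOX17-above, and Sox7 (-1.79) and Fst (-0.88) among SOX2-above. Thus the region of highest OCT4 among those nearest Sox2 had more SOX17 than SOX2, relative to the median region. It was intergenic and 70717 bp from the start of Sox2, and the Nanog region lay 44325 bp from that of Nanog, in an intron of Slc2a3.

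Signal without target set a limit to both antibodies. Before induction, the SOX17 antibody gave a median of 0.545 RPM against 0.947 at day 2, and day 2 was higher in 77.3% of regions. The SOX2 antibody gave 0.517 RPM in XEN cells against 0.849 at day 2, with day 2 higher in 72%. The SOX17 signal before induction correlated with SOX2 at that time at 0.927 and with OCT4 of day 2 at 0.803, close to the 0.833 of SOX17 at day 2. SOX2 before induction correlated with OCT4 of day 2 at 0.783, and SOX2 in XEN cells at 0.478. How much of the day 2 correlation of SOX17 this signal carries was not tested beyond its subtraction, after which rho was 0.486 for SOX17 and 0.732 for SOX2. SOX2 was also ahead at 8 h (rho of 0.924 against 0.787 for SOX17), 16 h (0.904 and 0.804), day 1 (0.903 and 0.856) and day 4 (0.895 and 0.855). The median SOX17 signal was 0.544 RPM at 8 h and 0.55 RPM at 16 h, and thus near its level before induction. SOX2 was ahead as well before induction (0.955 and 0.91), where SOX17 signal is without target, and in XEN cells (0.658 and 0.594), where SOX2 signal is. The comparisons before induction, at 8 h and 16 h and in XEN cells do not show which factor OCT4 follows. Since the order also arose without target, they limit the reading at day 2.

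The change of OCT4 was set beside that of each SOX factor for 3 intervals. From before Dox to day 2, the log2 change of OCT4 correlated with that of SOX17 at 0.785 and with that of SOX2 at 0.773, with partial correlations of 0.562 and 0.53, whereas the change of input correlated with that of OCT4 at 0.382. At closed regions the correlation was 0.773 for SOX17 and 0.73 for SOX2. At accessible regions it was 0.808 and 0.875. At the compressed spelling, where the median change was 0.57 for OCT4, 1.27 for SOX17 and 0.22 for SOX2, OCT4 moved with SOX17 at 0.903 and with SOX2 at 0.849. At the canonical spelling OCT4 went down by a median of -0.31 and SOX2 by -0.49, and the correlations were 0.842 and 0.878. Resolving the columns before induction into 2 libraries left 99.7% of SOX17 and SOX2 and 99.8% of OCT4 values without a solution, so these changes have no replicate check. The SOX17 signal before Dox is also without target, and at that time it correlated with OCT4 at 0.91 and with SOX2 at 0.927. The change of SOX17 since then therefore includes any change of this signal, and its share was not tested. From day 1 to day 2, the correlation was 0.375 for SOX17 and 0.467 for SOX2 over all regions and 0.588 and 0.596 at the compressed spelling. Over 16 combinations of single libraries it ran from -0.00378 to 0.496 for SOX17 and from 0.0329 to 0.464 for SOX2 over all regions, so that the order could not be told from this interval. From day 2 to day 4, it was 0.791 with SOX17 and 0.837 with SOX2 over all regions, and 0.77 and 0.85 at the compressed spelling, where SOX2 was ahead, unlike in the change since induction.

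SOX17 was also measured after 48 h of Dox with an Oct4 or a control siRNA, in 2 libraries each. All regions shifted by a median of 0.51 on the log2 scale with Oct4 siRNA, in which the shallower library had 15% of its reads on the regions and the deeper 8.32%, so changes were taken relative to this shift. The median difference was -0.02 at SOX17-above regions (-0.14 to 0.02 over 4 library pairs) and -0.20 at SOX2-above regions (-0.26 to -0.19). It was -0.13 at compressed and -0.12 at canonical regions, and -0.19 at regions with a high OCT:SOX motif (-0.22 to -0.15). With control siRNA the median SOX17 signal was 0.572 RPM at SOX2-above and 0.712 RPM at high OCT:SOX regions. The antibody gave more there before induction, without target, at 1.4 and 1.06 RPM. The differences at these regions therefore do not show a loss of bound SOX17. Single SOX17-above regions differed from their group median. At Wwp2, Aqp1, Cd247 and Gnat2 SOX17 was at 17, 9.35, 25.5 and 8.09 RPM with control siRNA. With Oct4 siRNA it was lower, at 9.86, 6.68, 10.7 and 5.01 RPM. At Gata4 and Col4a2 it was higher, going from 25.7 and 41.5 RPM to 36.5 and 64 RPM. With SOX17 of control siRNA cells in place of SOX17 at day 2, rho with OCT4 was 0.722, and the calls were 8741 SOX17-above and 6829 SOX2-above. Both comparisons share the 2 SOX2 libraries.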

How the data were processed

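Per the labels and the methods, the authors used cutadapt for trimming and Bowtie2 for alignment to mm10. Poorly mapped reads were dropped, and copies of a molecule were collapsed by their molecular identifier. GATA6 regions came from MACS2 peaks, and their reads were counted with bamsignals and scaled to library size. SAMtools and bcl2fastq are also named in the submitters' processing notes. The deposited values are RPM, pooled by the authors over the libraries of a condition. The authors also deposited the score and position of the best FIMO match of each motif and classes of that score, of accessibility and of GATA6 binding. The outcome of their Oct4 siRNA comparison and 14 columns of per-sample values from other libraries were not used.

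Each pooled value is the mean of 2 libraries' RPM. Since the value of 1 read follows from the column, each was resolved into whole multiples per library, with 1 solution for all 42403 regions of SOX17 and SOX2. In OCT4, 278 regions had several solutions, and the one with the most equal RPM was kept. The lowest multiple was 1 in every library and no region was at 0, as would also arise if 1 read had been added to each. SOX17 had a median of 11 and 13 reads per region, SOX2 of 15 and 14 and OCT4 of 16 and 33, which limits the precision of low values. Log2 values were log2(RPM + 0.204), the pseudocount being percentile 5 of the values of the 3 antibodies, which understates changes at low values. Single regions were tested with limma 3.58.1 (mean-variance trend, R 4.3.3), 2 libraries against 2, each centred on its median, with Benjamini-Hochberg adjustment over 42403 regions and a threshold of 0.05. The prior degrees of freedom were infinite, so that the variance of a region came from the trend. Per the methods, most conditions had 2 separately prepared chromatin samples, and whether these were separate cultures is not said. The p-values therefore rest on the spread between such preparations over regions of like signal, and not on that of the single region. No count model was run, because the columns are means. The resolution and the test were tested on simulated data.

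Motif positions were read as counted from 1 and checked against the RefSeq sequence of GRCm38.p6, the assembly that mm10 names, from which sequences were taken. Nearest genes are the protein-coding starts of GENCODE M21, searched over 21951 genes, and coordinates are as deposited. Named regions were, in the top 10% of OCT4, the 4 with the highest and the 4 with the lowest SOX17 over SOX2 (1 per nearest gene, without the top 1% of input), and for each gene of 2 lists the region of highest OCT4, of which the 5 with most OCT4 are described. Regions, classes and lists were chosen with earlier results of these data known. The series of spacings, the changes from day to day, the siRNA columns and the use of control siRNA cells were added after seeing the data. Alternatives were Pearson correlation, RPM per kb, subtraction of input or of the signal without target, regions of higher signal or outside the top 10% of input, thinned reads, pseudocounts 10 times larger and smaller, means, no centring, limma without the trend and each library left out. Python 3.11.15 with numpy 2.4.6, pandas 2.3.3 and matplotlib 3.10.9 was used.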

Additional observations from a re-analysis of the deposited data

How the results depend on the processing

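OCT4 correlated more with SOX2 than with SOX17 under all 15 settings run, and no class difference changed sign. No paired analysis was possible because the pooled columns carry no replicate number. The correlation of OCT4 with SOX17 was 0.85 by Pearson, and the Spearman correlation with SOX17 and SOX2 was 0.697 and 0.837 per kb, 0.735 and 0.857 minus input, 0.486 and 0.732 minus the signal without target, 0.613 and 0.818 at regions of higher signal and 0.789 and 0.894 outside the top 10% of input. Leaving out 1 library gave 0.808 to 0.832 for SOX17, 0.886 to 0.917 for SOX2, and partial correlations of 0.249 to 0.502 and 0.648 to 0.769. Holding input, GATA6 and width constant gave 0.0683 and 0.656. With control siRNA SOX17, rho was 0.722 and the partial correlation of SOX2 0.834.

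The differences in balance for OCT:SOX motif, SOX17 motif, accessibility and compressed minus canonical spelling were -0.28, 0.10, -0.22 and 0.41 with a larger pseudocount, -1.24, 0.32, -0.94 and 1.31 at regions of higher signal, -1.17, 0.40, -0.88 and 1.38 minus input, and -2.09, 0.52, -1.63 and 2.24 minus the signal without target. With a smaller pseudocount the values for the OCT:SOX motif and the spelling were -1.01 and 1.14, with means those for the OCT:SOX motif and accessibility -0.87 and -0.78, and with control siRNA SOX17 -0.92, 0.39 and -1.38 for the first 3. Leaving out 1 library gave -0.84 to -0.75, 0.21 to 0.29, -0.74 to -0.50 and 0.88 to 1.07.

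SOX17-above regions numbered 708 to 5261 and SOX2-above regions 1322 to 3820 when 1 library was left out, where the lone library was assumed to vary like the pair. They numbered 8741 and 6829 with control siRNA SOX17, and SOX2-above regions 2412 without centring. The cause of these moves was not tested. Named regions kept their call in 162 of 180 cases, and that of Tbx3 went to -0.48 with control siRNA SOX17 (limma adjusted p = 0.0066).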
